A study of Capra hircus with 6 samples.

Results

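Chemokines are small secreted proteins that steer migrating cells, mostly leukocytes, along gradients. They are sorted into CC, CXC, CX3C and XC families by the spacing of conserved cysteines, and most signal through G-protein-coupled receptors of the matching family name. Atypical chemokine receptors (ACKR) bind chemokines without the usual G-protein signal and can remove them from the tissue. In the mammalian ovary, leukocytes enter the follicle wall around ovulation and the corpus luteum during its regression, and chemokines are among the signals known to recruit them.

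All 40 genes whose goat symbol names a numbered CC, CXC, XC or CX3C chemokine, a numbered receptor of these families, or ACKR1 to ACKR4 were taken, out of 17504 genes in the deposited tables, with no filter on expression. They were 21 ligands (11 CC, 9 CXC and the CX3C ligand CX3CL1) and 19 receptors (8 CC, 6 CXC, CX3CR1 and XCR1, and 3 atypical). The tables hold whole-ovary RNA from 3 Jintang black goats, called prolific in the labels, and 3 Tibetan goats, called non-prolific, all taken at follicular phase. The labels name no treatment or genotype and do not give the animals' ages, and each library is 1 goat. The unit is FPKM, in which the fragments of a gene are scaled by transcript length and by the mapped fragments of the library, so that levels of different genes can be set side by side. Each value below is a level in FPKM unless it is called a log2 fold change. That is the difference Jintang minus Tibetan of mean log2(FPKM + 1), and it understates the change of low genes. In bulk tissue, fewer cells of a type and less RNA per cell cannot be told apart.

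The libraries summed to between 602255 and 682801 FPKM, and their relative depth, read from the spacing of low values, lay between 0.925 and 1.028 with Tibetan 1 set to 1. The absolute depth is unknown. The somatic gonadal factor NR5A1 was present in every ovary, at 19.3 to 62.6 FPKM. The luteal gene STAR, which carries cholesterol into mitochondria, stood at 139, 3130.4 and 30.8 FPKM in Jintang 1, 2 and 3 and at 8.91, 28.6 and 139 FPKM in Tibetan 1, 2 and 3, so the ovaries of a breed differed widely in steroidogenic RNA. Macrophage markers stood apart in Jintang 1, where the 17 matched genes of the marker list summed to 2261 FPKM, against 304 and 666 FPKM in Jintang 2 and 3 and 163 to 536 FPKM in the Tibetan ovaries.

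Breeds were compared with limma over the 13067 genes that reached 1 FPKM in 3 or more libraries. At the adjusted threshold of 0.05, 0 genes passed with the higher level in Jintang goats and 0 with the lower (0% of genes tested in each direction). Of the 40 chemokine genes 19 entered the test, 12 ligands and 7 receptors, and 0 passed; none of the 19 had entered through 1 breed alone. At an unadjusted p under 0.05 there were 2 of the 19, CCL21 and CX3CR1, both higher in Jintang ovaries, beside 6.17% of all genes tested (806 genes) in either direction, 2.82% with the higher level in Jintang goats and 3.35% with the lower. The breeds did not overlap in 2 of the 19. In CCL21 each Jintang goat exceeded each Tibetan goat, an order that 3.2% of all genes tested had, and in CCL27 each Jintang goat was the lower, an order that 6.7% had. The log2 fold change was above 0 in 10 of the 19 (median 0.01), beside 41% of all genes tested (median -0.10). With median-ratio scaling it was above 0 in 10 (median 0.09, beside 0.02 over all genes), and with libraries rescaled to 1 sum in 9 (median -0.03). Leaving out single libraries moved these counts: without Jintang 3, 13 genes passed over the whole table, none of them a chemokine gene, and 4 of the 19 had an unadjusted p under 0.05, beside 14.3% of all genes. That count was 1 without Jintang 1, without Jintang 2 or without Tibetan 1, beside 2.69%, 4.09% and 2.57% of all genes. Separation of the breeds is easier with 5 ovaries for every gene: 5 of the 19 did not overlap without Jintang 2 (26.3%, beside 15.9% of all genes) and 6 without Jintang 3 (31.6%, beside 33.6%). Without Tibetan 2 there were 5 (26.3%, beside 22.5%) and without Tibetan 3 there were 4 (21.1%, beside 26%).

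**Figure D1:**
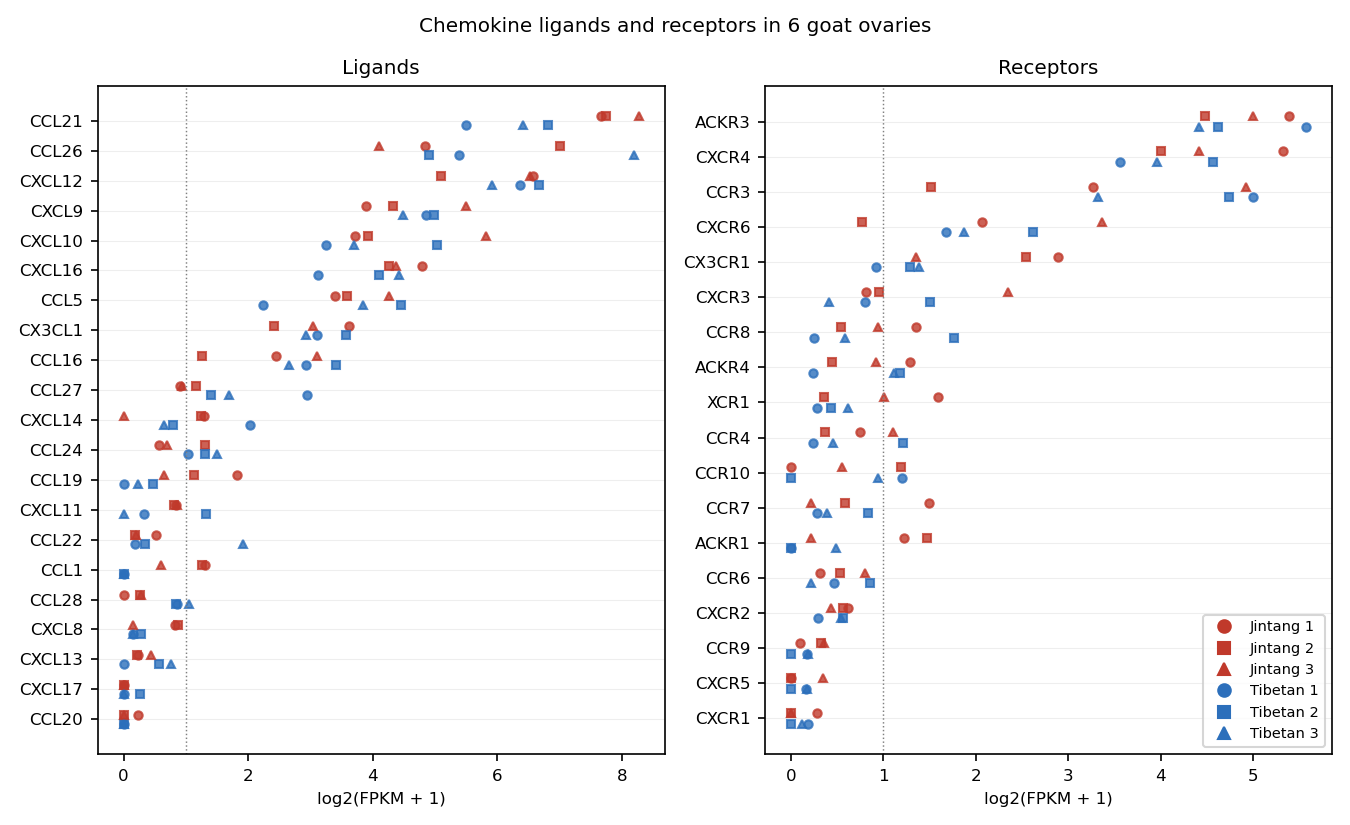
Levels of the 21 ligands (left) and 18 of the receptors (right) as log2(FPKM + 1), 1 point per ovary, red for Jintang and blue for Tibetan, genes ordered by their mean over the 6 ovaries; the dotted line marks 1 FPKM. By that mean CCL21, CCL26 and CXCL12 lead the ligands and ACKR3, CXCR4 and CCR3 the receptors. In CCL21 the 3 red points lie to the right of the 3 blue points.

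Among the 21 ligands taken, 3 genes of different families and roles had the highest means over the 6 ovaries. CCL21, a homeostatic chemokine that lymphatic endothelium makes to draw CCR7-bearing dendritic cells and T cells, averaged 160 FPKM over the 6 ovaries. CCL26, an eotaxin that in humans acts on CCR3, averaged 88.8 FPKM, and CXCL12, the stromal ligand of CXCR4 and ACKR3, averaged 76.6 FPKM. The next ligands were CXCL9 at 26.2, CXCL10 at 22.3 and CXCL16 at 18.1 FPKM, and CCL5, CX3CL1 and CCL16 followed at 12.8, 7.97 and 5.81 FPKM. The ranges of neighbouring genes in this order overlapped over the 6 ovaries, and 31 of the 40 genes reached 1 FPKM in at least 1 ovary. CCL26 was not a leading ligand everywhere. In Jintang 3, at 16.2 FPKM, it lay below CXCL10, CXCL9, CXCL16 and CCL5. In Tibetan 2, at 28.75 FPKM, it lay below CXCL10 and CXCL9. Together CCL21, CCL26 and CXCL12 made up 78.8%, 83.0% and 72.6% of the summed ligand FPKM in Jintang 1, 2 and 3, and 69.1%, 65.4% and 83.1% in Tibetan 1, 2 and 3. All 21 ligands summed to 411, 451 and 572 FPKM in the Jintang ovaries and to 240.2, 368 and 524 FPKM in the Tibetan ovaries.

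CCL21 held a larger share of the ligand RNA in every Jintang ovary than in any Tibetan ovary. CCL21 held 49.1%, 47.3% and 53.9% of the ligand signal in Jintang 1, 2 and 3, and 18.4%, 30.1% and 16.1% in Tibetan 1, 2 and 3. CXCL12 held 23.0%, 7.37% and 15.8% in the Jintang ovaries against 33.7%, 27.4% and 11.4% in the Tibetan ovaries, with overlap. CCL26 held between 2.83% and 28.3% in the Jintang ovaries and between 7.81% and 55.7% in the Tibetan ovaries. A share falls when another ligand is high, so these 3 series are not independent of each other.

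**Figure D2:**
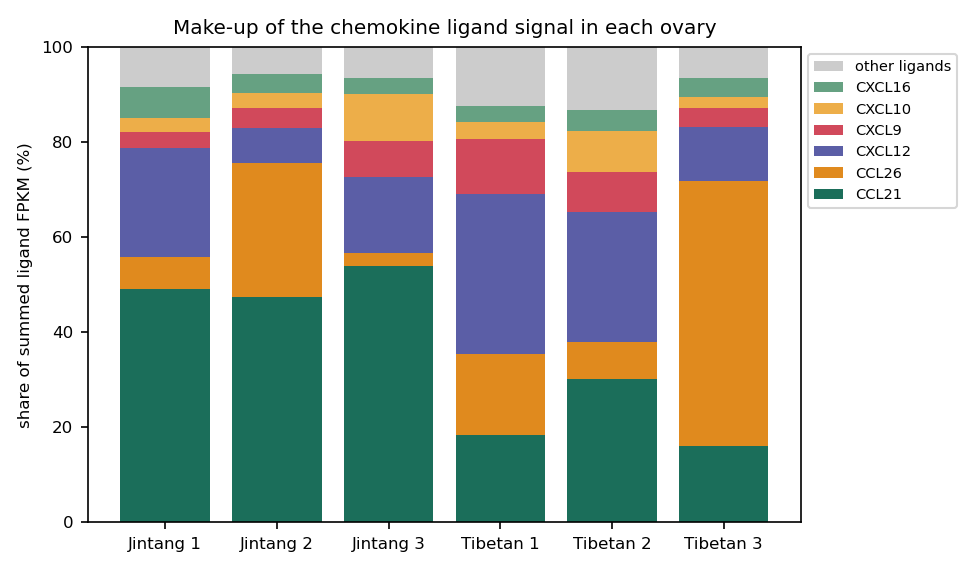
Share of the summed FPKM of the 21 ligands (vertical axis, percent) held by the 6 most abundant of them in each ovary, with the other ligands in grey. CCL21 (dark green, at the bottom) holds at least 47.3% in the 3 Jintang ovaries and at most 30.1% in the 3 Tibetan ovaries, and CCL26 (orange) holds 55.7% in Tibetan 3.

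CCL21 (GeneID 102175293) stood at 201, 213 and 308 FPKM in Jintang 1, 2 and 3, and at 44.15, 111 and 84.3 FPKM in Tibetan 1, 2 and 3. Every Jintang ovary lay above every Tibetan ovary, with the highest level in Jintang 3 and the lowest in Tibetan 1. It averaged 241 ± 58.5 FPKM in Jintang and 79.8 ± 33.7 FPKM in Tibetan ovaries (SD, n = 3 each), a log2 fold change of 1.65 (SE 0.39, limma unadjusted p = 0.00273, adjusted p = 0.743). The log2 fold change stayed between 1.28 (without Tibetan 1) and 1.94 (without Tibetan 2) over the 14 alternatives. The unadjusted p lay between 0.00138 and 0.0119 in them and the adjusted p between 0.249 and 0.999, so CCL21 passed in none over all genes.

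CCL21 was set beside the other genes of the lymphatic endothelial list. Its 6 members other than CCL21 were all tested and none passed. All 6 had a log2 fold change above 0 (median 0.34), beside 41% of all genes tested (median -0.10). Of the 6, 5 were lowest in Tibetan 1, beside 20.8% of all genes tested, while 2 were highest in Jintang 1 and 2 in Tibetan 2. These 6 genes summed to 137, 156 and 113 FPKM in Jintang 1, 2 and 3 and to 55.8, 130 and 115 FPKM in Tibetan 1, 2 and 3, so that this sum overlapped between the breeds. PROX1, the transcription factor that sets lymphatic identity, stood at 2.81, 2.73 and 1.79 FPKM in the Jintang ovaries against 1.73, 3.13 and 1.28 FPKM in the Tibetan ovaries. LYVE1, a hyaluronan receptor of lymphatic endothelium that some macrophages also carry, stood at 31.8, 28.9 and 14.4 FPKM against 12.3, 25.8 and 30.6 FPKM in the Tibetan ovaries. PDPN, podoplanin, stood at 79.5, 104 and 58.2 FPKM in the Jintang ovaries against 37.5, 68.4 and 65.5 FPKM in the Tibetan ovaries. All 3 overlapped between the breeds. FLT4, a receptor for lymphatic growth factors, did not: it stood at 13.8, 13.0 and 8.27 FPKM in the Jintang ovaries and at 2.33, 7.92 and 4.12 FPKM in the Tibetan ovaries (log2 fold change 1.22, limma unadjusted p = 0.0168, adjusted p = 0.743).

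Ratios within a library do not depend on how libraries are scaled to each other. The ratio of CCL21 to PROX1 was 71.7, 78.2 and 172 in Jintang 1, 2 and 3 and 25.5, 35.5 and 65.9 in Tibetan 1, 2 and 3, and the ratio to LYVE1 was 6.33, 7.39 and 21.4 against 3.58, 4.30 and 2.75 in the Tibetan ovaries. The ratio to PDPN was 2.54, 2.05 and 5.30 in the Jintang ovaries against 1.18, 1.62 and 1.29 in the Tibetan ovaries. In these 3 of the 6 ratios every Jintang ovary lay above every Tibetan ovary, and the other 3 overlapped. The ratio to FLT4 was 14.6, 16.5 and 37.3 in the Jintang ovaries against 18.9, 14.0 and 20.5 in the Tibetan ovaries. The ratio to RELN, an extracellular matrix protein, was 70.9, 109 and 152 in the Jintang ovaries against 86.6, 35.6 and 64.4 in the Tibetan ovaries. The ratio to MMRN1, multimerin, was 34.3, 42.5 and 10.7 in the Jintang ovaries against 32.0, 5.16 and 6.94 in the Tibetan ovaries. The ratios were chosen after the levels were seen and were not tested; 3 ovaries against 3 allow no exact two-sided permutation p under 0.10. The part of lymphatic endothelial cells in the CCL21 difference was not tested.

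**Figure D3:**
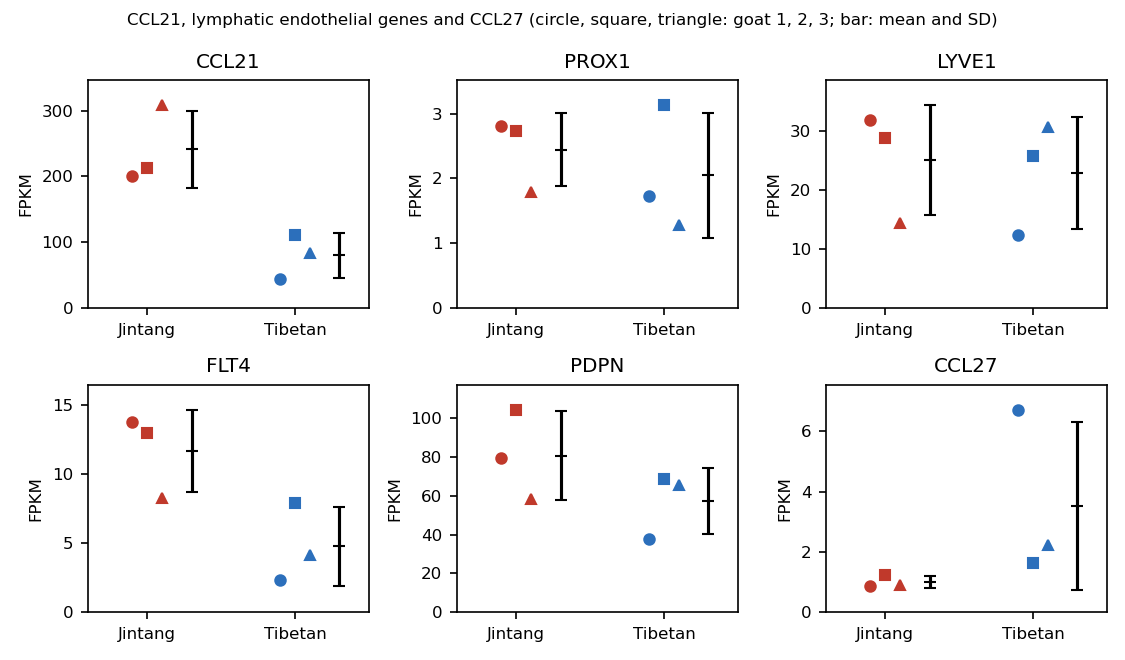
Level in FPKM (vertical axis, from 0) of CCL21, of the lymphatic endothelial genes PROX1, LYVE1, FLT4 and PDPN, and of CCL27, with 1 symbol per goat and the mean and SD of each breed. CCL21 and FLT4 lie higher and CCL27 lower in all 3 Jintang ovaries, and the breeds overlap in PROX1, LYVE1 and PDPN.

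The other ligand of CCR7, CCL19, a chemokine of lymphoid tissue and mature dendritic cells, was far lower than CCL21. CCL19 stood at 2.55, 1.18 and 0.56 FPKM in Jintang 1, 2 and 3 and was listed at 0, 0.38 and 0.18 FPKM in Tibetan 1, 2 and 3, without overlap. It did not reach the filter; fitted without a filter it had a log2 fold change of 0.96 (limma unadjusted p = 0.0169, adjusted p = 0.775). CCR7 itself stood at 1.81, 0.50 and 0.16 FPKM in the Jintang ovaries and at 0.22, 0.78 and 0.31 FPKM in the Tibetan ovaries, so the receptor RNA overlapped between the breeds. ACKR4, the atypical receptor that scavenges CCL19 and CCL21, stood at 1.44, 0.36 and 0.90 FPKM in the Jintang ovaries and at 0.18, 1.26 and 1.17 FPKM in the Tibetan ovaries.

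CCL21 and CCL19 are direct neighbours among coding genes of the goat reference, and 1 coding gene lies between CCL19 and CCL27. The level of CCL27 ran the other way from CCL21 and CCL19. CCL27, a skin-homing chemokine that acts on CCR10, stood at 0.87, 1.24 and 0.91 FPKM in Jintang 1, 2 and 3 and at 6.71, 1.65 and 2.22 FPKM in Tibetan 1, 2 and 3. Every Jintang ovary lay below every Tibetan ovary, and the highest level was that of Tibetan 1. The log2 fold change was -1.01 (SE 0.44, limma unadjusted p = 0.0511, adjusted p = 0.743). It was -0.55 without Tibetan 1 and -1.54 with a pseudocount of 0.01, and the unadjusted p was under 0.05 in 6 of 13 alternatives, from 0.0273 to 0.183 over all of them. CCR10 was at or below 1.30 FPKM in every ovary and was listed at 0 in Jintang 1 and Tibetan 2. CCL28, the mucosal ligand of CCR10, was listed at 0, 0.20 and 0.22 FPKM in Jintang 1, 2 and 3 and at 0.81, 0.79 and 1.07 FPKM in Tibetan 1, 2 and 3, again without overlap and below the filter. Without a filter its log2 fold change was -0.73 (limma unadjusted p = 0.00159, adjusted p = 0.775).

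CCL26 (GeneID 102173357) had the widest range over the ovaries of the 19 genes tested. It stood at 27.7, 128 and 16.2 FPKM in Jintang 1, 2 and 3 and at 40.9, 28.75 and 292 FPKM in Tibetan 1, 2 and 3. It was high in 1 ovary of each breed, Tibetan 3 and Jintang 2, and the log2 fold change of -0.84 (SE 0.97, limma adjusted p = 0.840) became 0.18 without Tibetan 3. These 2 ovaries also had the highest levels of STAR given above, although Jintang 1 came within 1 FPKM of Tibetan 3 in STAR and was low in CCL26. Of the luteal list, SCARB1, FDX1, LHCGR and the gene matched to CYP11A1 also had their 2 highest levels in these ovaries. PTGFR, TIMP1 and PRLR did not. PTGFR was highest in Jintang 1, at 274 FPKM, and lowest in Tibetan 3, at 9.23 FPKM. The part of steroidogenic cells in the level of CCL26 was not tested. CCL24, the neighbouring eotaxin gene, stayed between 0.48 and 1.82 FPKM in every ovary, with its highest level also in Tibetan 3.

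CCR3, the receptor of the eotaxins, best known on eosinophils, did not follow CCL26. It stood at 8.65, 1.85 and 29.3 FPKM in Jintang 1, 2 and 3 and at 30.9, 25.6 and 9.02 FPKM in Tibetan 1, 2 and 3, with the lowest level in Jintang 2. The log2 fold change was -1.12 (SE 0.81, limma adjusted p = 0.763); it was -1.96 without Jintang 3 and -0.26 without Jintang 2. The ratio of CCL26 to CCR3 was 3.20, 69.0 and 0.552 in the Jintang ovaries and 1.32, 1.12 and 32.3 in the Tibetan ovaries. The 3 ovaries with the highest CCR3, Tibetan 1, Jintang 3 and Tibetan 2, were also the 3 with the highest smooth muscle myosin MYH11, which stood at 148, 113 and 705 FPKM in the Jintang ovaries and at 1019, 534 and 280 FPKM in the Tibetan ovaries. Other genes of the 8-gene smooth muscle list ordered the ovaries differently. CNN1, calponin, stood at 99.6, 64.6 and 242 FPKM in the Jintang ovaries and at 346, 130 and 407 FPKM in the Tibetan ovaries, highest in Tibetan 3. The list summed to 3751, 2046 and 7817 FPKM in the Jintang ovaries and to 7832, 4125 and 5230.1 FPKM in the Tibetan ovaries. The part of smooth muscle in the level of CCR3 was not tested. Of the 14 neutrophil and eosinophil markers only 6 matched a gene, and the eosinophil granule gene EPX was not among them, so eosinophils were not assessed here.

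CXCL12 (GeneID 102169556) stood at 94.4, 33.2 and 90.6 FPKM in Jintang 1, 2 and 3 and at 80.8, 101 and 59.6 FPKM in Tibetan 1, 2 and 3. The breeds overlapped, with the lowest level in Jintang 2, and the log2 fold change of -0.25 (SE 0.44, limma adjusted p = 0.899) turned to 0.23 without Jintang 2. Its receptor CXCR4, carried by most leukocytes and by endothelium, stood at 39.0, 15.1 and 20.3 FPKM in the Jintang ovaries and at 10.8, 22.7 and 14.6 FPKM in the Tibetan ovaries (limma adjusted p = 0.767, log2 fold change 0.55 with SE 0.41). Its scavenger ACKR3, found on endothelial and stromal cells, stood at 40.8, 21.3 and 30.9 FPKM in the Jintang ovaries and at 46.5, 23.6 and 20.2 FPKM in the Tibetan ovaries (limma adjusted p = 0.961, log2 fold change 0.09 with SE 0.38). ACKR3 had the highest mean of all 19 receptors, and CXCR4 the second highest. The ratio of CXCR4 to ACKR3 was 0.958, 0.709 and 0.656 in the Jintang ovaries and 0.232, 0.963 and 0.720 in the Tibetan ovaries, so the scavenger was the more abundant RNA in all 6 ovaries and the Tibetan 1 ovary stood apart.

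The receptor RNA, like the ligand RNA, was held by few genes. ACKR3, CXCR4 and CCR3 together made up 78.0%, 71.6% and 74.9% of the summed FPKM of the 19 receptors in Jintang 1, 2 and 3, and 91.3%, 78.2% and 79.3% in Tibetan 1, 2 and 3. The Jintang shares lay just below the Tibetan ones, and the gap between 78.0% and 78.2% was small. The 19 receptors summed to 113, 53.4 and 107 FPKM in the Jintang ovaries and to 96.7, 92.1 and 55.2 FPKM in the Tibetan ovaries. The other 16 receptors stayed at or below 9.29 FPKM in every ovary.

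The interferon-inducible CXC ligands, which act on CXCR3 of activated T cells and natural killer cells, were highest in Jintang 3 and Tibetan 2 rather than in 1 breed. CXCL9 stood at 13.9, 19.1 and 44.1 FPKM in Jintang 1, 2 and 3 and at 28.1, 30.7 and 21.4 FPKM in Tibetan 1, 2 and 3 (limma adjusted p = 0.912, log2 fold change -0.21 with SE 0.42). CXCL10, its neighbour, stood at 12.2, 14.2 and 55.5 FPKM in the Jintang ovaries and at 8.52, 31.6 and 11.96 FPKM in the Tibetan ovaries (limma adjusted p = 0.861, log2 fold change 0.50 with SE 0.64). CXCL11, the next gene along, stayed at or below 1.49 FPKM, with its highest level in Tibetan 2. CXCR3 was also highest in these 2 ovaries, at 0.76, 0.93 and 4.08 FPKM in the Jintang ovaries and 0.74, 1.84 and 0.33 FPKM in the Tibetan ovaries.

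CCL5, a ligand that T cells and natural killer cells make, stood at 9.52, 11.0 and 18.2 FPKM in Jintang 1, 2 and 3 and at 3.72, 20.9 and 13.3 FPKM in Tibetan 1, 2 and 3, again highest in Tibetan 2 and Jintang 3 (limma adjusted p = 0.922, log2 fold change 0.24 with SE 0.55). CXCR6, a receptor of tissue-resident T cells, stood at 3.19, 0.70 and 9.29 FPKM against 2.21, 5.15 and 2.66 FPKM in the Tibetan ovaries. CD3E, a chain of the T cell receptor complex, ran at 10.9, 5.89 and 27.5 FPKM in the Jintang ovaries and at 7.20, 25.0 and 8.46 FPKM in the Tibetan ovaries. The 17 matched lymphocyte markers summed to 94.5, 55.1 and 156 FPKM in the Jintang ovaries and to 77.4, 130 and 60.8 FPKM in the Tibetan ovaries, with the 2 highest sums in Jintang 3 and Tibetan 2. Of the 14 tested, 7 were highest in Jintang 3 and 2 in Tibetan 2, and the rest elsewhere. CD8A was highest in Jintang 2 (11.4 FPKM), CD8B in Tibetan 1 (38.9 FPKM) and NKG7 in Jintang 1 (22.2 FPKM). CD8A had a log2 fold change of 1.15 (limma unadjusted p = 0.0428, adjusted p = 0.743). IFNG, interferon gamma, was at or below 0.41 FPKM in every ovary and was listed at 0 in Jintang 1, Jintang 2 and Tibetan 1. The part of T cells in these levels was not tested.

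The ratio of CCL5 to CD3E was 0.870, 1.86 and 0.662 in Jintang 1, 2 and 3 and 0.517, 0.834 and 1.58 in Tibetan 1, 2 and 3, and the ratio of CXCR6 to CD3E was 0.292, 0.119 and 0.337 against 0.307, 0.206 and 0.314 in the Tibetan ovaries. Both ratios overlapped between the breeds. CXCL13 and CXCR5, the pair that organizes B cell follicles, stayed at or below 0.70 and 0.27 FPKM in every ovary. The B cell gene MS4A1 stayed at or below 0.08 FPKM.

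CXCL16, a membrane-bound ligand of CXCR6 that macrophages and endothelium make, stood at 26.7, 18.1 and 19.7 FPKM in Jintang 1, 2 and 3 and at 7.74, 16.2 and 20.3 FPKM in Tibetan 1, 2 and 3 (limma adjusted p = 0.755, log2 fold change 0.59 with SE 0.37). Its level overlapped between the breeds through Tibetan 3. CX3CL1, the membrane-bound fractalkine, stood at 11.3, 4.31 and 7.18 FPKM in the Jintang ovaries and at 7.58, 10.8 and 6.65 FPKM in the Tibetan ovaries (limma adjusted p = 0.912, log2 fold change -0.18 with SE 0.37). Its receptor CX3CR1, carried by monocytes and tissue macrophages, stood at 6.42, 4.82 and 1.55 FPKM in the Jintang ovaries and at 0.89, 1.44 and 1.62 FPKM in the Tibetan ovaries. It was high in Jintang 1 and 2 only, and Jintang 3 lay within the Tibetan range. The log2 fold change was 1.06 (SE 0.44, limma unadjusted p = 0.0423, adjusted p = 0.743). It ran from 0.75 (without Jintang 1) to 1.52 (without Jintang 3), and the unadjusted p was above 0.05 without Jintang 1 (0.154), without Jintang 2 or without any 1 of the Tibetan goats.

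Several of these genes were highest or lowest in the same ovary as the macrophage markers. Jintang 1 had the highest level of all 16 tested markers of that list, and of CX3CR1, CXCR4, CXCL16, CX3CL1 and ACKR4 among the 19 chemokine genes tested. These were 5 of the 19 (26.3%), beside 12.6% of all genes tested. Jintang 3 also had the highest level of 5 of the 19 (26.3%, beside 8.57% of all genes tested). Tibetan 1 had the lowest level of 13 of the 16 markers and of 8 of the 19 chemokine genes (42.1%, beside 20.8% of all genes tested). The macrophage receptor CSF1R stood at 62.0, 15.8 and 16.4 FPKM in Jintang 1, 2 and 3 and at 9.08, 16.0 and 9.04 FPKM in Tibetan 1, 2 and 3. The ratio of CX3CR1 to CSF1R was 0.103, 0.304 and 0.0946 in the Jintang ovaries and 0.098, 0.0901 and 0.179 in the Tibetan ovaries, with overlap. CX3CR1 was higher in Jintang 2 (4.82 FPKM) than in Jintang 3 (1.55 FPKM), whereas the macrophage markers summed to 304 and 666 FPKM there. CXCL16 stood at 20.3 FPKM in Tibetan 3, where CSF1R was lowest. CXCR4, like the marker sum, was highest in Jintang 1, Jintang 3 and Tibetan 2. The part of macrophages in the level of CX3CR1, CXCR4 or CXCL16 was not tested. Jintang 2 held the highest level of none of the 19 chemokine genes, whereas it held that of 20.6% of all genes tested.

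**Figure D4:**
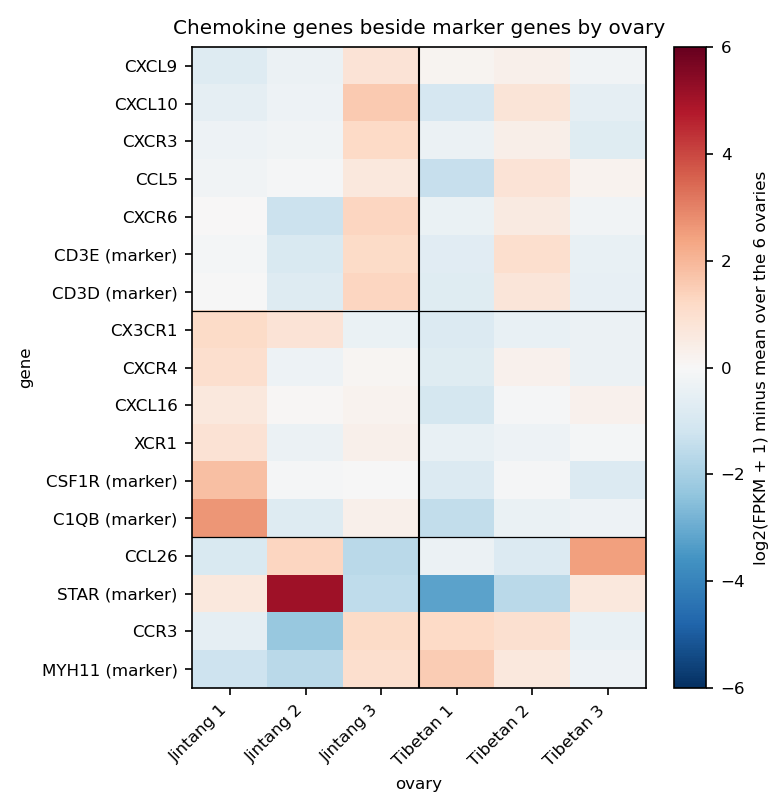
log2(FPKM + 1) minus the mean over the 6 ovaries (colour, red above and blue below the mean) for 11 chemokine genes and 6 marker genes of other kinds, Jintang ovaries left of the line and Tibetan ovaries right of it. The upper block, with the T cell genes CD3E and CD3D, has each gene's highest value in Jintang 3 or Tibetan 2, the middle block, with CSF1R and C1QB, has it in Jintang 1, and CCL26 has it in Tibetan 3.

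CXCL8 and its receptors were low. CXCL8, the main neutrophil attractant, stood at 0.77, 0.83 and 0.11 FPKM in Jintang 1, 2 and 3 and at 0.11, 0.21 and 0.11 FPKM in Tibetan 1, 2 and 3. Its receptors CXCR1 and CXCR2, neighbouring genes of similar sequence whose reads may be shared, stayed at or below 0.22 and 0.53 FPKM. Of the matched neutrophil markers, S100A8 and S100A9 reached 23.2 and 51.6 FPKM in Tibetan 3, and ELANE reached 23.1 FPKM in Tibetan 1. CSF3R, CD177 and LTF stayed at or below 1.10, 0.19 and 0.40 FPKM. CCL20 was listed above 0 in Jintang 1 only (0.17 FPKM) and CXCL17 in Tibetan 2 only (0.20 FPKM).

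CCL1, a ligand of CCR8 that activated T cells make, was listed at 0 in all 3 Tibetan ovaries and at 1.48, 1.40 and 0.52 FPKM in Jintang 1, 2 and 3. Fitted without a filter it had a limma unadjusted p of 0.00138 and an adjusted p of 0.775. CCR8 stood at 1.56, 0.46 and 0.92 FPKM in the Jintang ovaries and at 0.19, 2.39 and 0.50 FPKM in the Tibetan ovaries. ACKR1, the scavenger of blood vessel venules and red cells, stood at 1.33, 1.78 and 0.16 FPKM in the Jintang ovaries and was listed at 0, 0 and 0.40 FPKM in the Tibetan ovaries. XCR1, a receptor of cross-presenting dendritic cells, stood at 2.02, 0.28 and 1.01 FPKM in the Jintang ovaries and at 0.22, 0.35 and 0.53 FPKM in the Tibetan ovaries. CLEC9A, another marker of these cells, stood at 1.48, 0.60 and 0.55 FPKM in the Jintang ovaries and was listed at 0, 0.30 and 0.43 FPKM in the Tibetan ovaries.

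The remaining ligands and receptors showed no order by breed. CCL16, a ligand best known from human liver, stood at 4.44, 1.40 and 7.56 FPKM in Jintang 1, 2 and 3 and at 6.57, 9.61 and 5.27 FPKM in Tibetan 1, 2 and 3 (limma adjusted p = 0.758, log2 fold change -0.72 with SE 0.48). Its neighbour CCL5 was described above. CXCL14 ranged up to 1.44 FPKM in the Jintang ovaries and up to 3.09 FPKM in the Tibetan ovaries, and CCL22 reached 2.77 FPKM in Tibetan 3 and at most 0.43 FPKM elsewhere. CCR4, CCR6 and CCR9 stayed at or below 1.32, 0.81 and 0.28 FPKM. In all, 21 of the 40 genes stayed out of the test, 9 of them below 1 FPKM in every ovary, and the highest level among the 21 was 4.08 FPKM, of CXCR3. In 3 of the 21 (14.3%), CCL1, CCL19 and CCL28, the breeds did not overlap, beside 7.44% of all 4344 untested genes that were above 0 in some ovary.

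Variation between ovaries was wider in the chemokine genes tested than in the table as a whole. The median SD within a breed was 0.60 on the log2(FPKM + 1) scale for the 19 genes and 0.42 for all genes tested, and the median range over the 6 ovaries was 1.97 against 1.15. This is a description of the 19 genes that reached the filter, without a test. Sums of all 40 genes were 524, 504 and 679 FPKM in Jintang 1, 2 and 3 and 337, 460 and 579 FPKM in Tibetan 1, 2 and 3, between 0.0559% and 0.101% of a library.

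**Figure D5:**
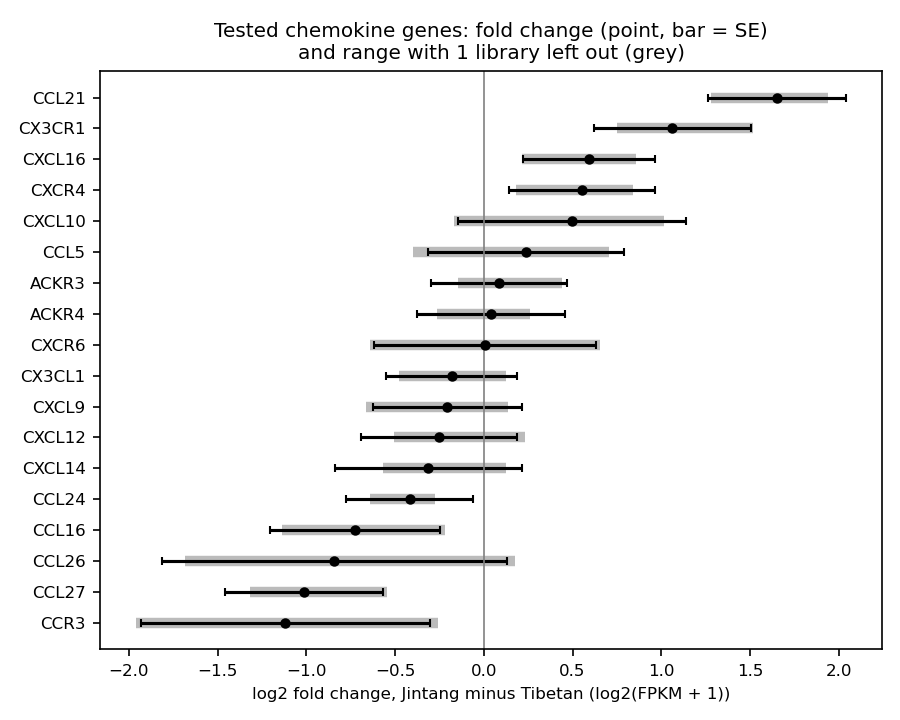
log2 fold change, Jintang minus Tibetan, of 18 of the chemokine genes tested (points, with SE as bars) and the range of the same value when each library is left out in turn (grey). CCL21 lies highest at 1.65 and CCR3 lowest at -1.12, and the grey range crosses 0 for CCL26 and for each gene from CXCL10 down to CXCL14.

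Around the chemokines, genes that carry the receptor signal were described as a list by counts and medians, without a test of the list. Of its 30 genes 29 were tested and 0 passed. The log2 fold change was above 0 in 21 of the 29 (median 0.65), beside 41% of all genes tested (median -0.10). Single ovaries weighed on this count. Of the 29, 16 were highest in Jintang 1, beside 12.6% of all genes tested, and 14 were lowest in Tibetan 1, beside 20.8%. An unadjusted p under 0.05 was found in 3, all higher in Jintang ovaries, beside 2.82% of all genes tested in that direction. ELMO1, which with DOCK2 turns receptor signals into cell movement, stood at 21.5, 17.1 and 13.3 FPKM in Jintang 1, 2 and 3 and at 4.52, 8.11 and 7.19 FPKM in Tibetan 1, 2 and 3 (log2 fold change 1.27, limma unadjusted p = 0.00332, adjusted p = 0.743). PIK3CG, the lipid kinase that G proteins activate in leukocytes, stood at 3.05, 4.94 and 1.42 FPKM in the Jintang ovaries and at 0.48, 0.93 and 0.88 FPKM in the Tibetan ovaries. Its regulatory subunit PIK3R5 stood at 4.73, 3.71 and 2.71 FPKM in the Jintang ovaries against 1.10, 1.79 and 1.71 FPKM in the Tibetan ovaries. In the list 4 of the 29 genes were higher in every Jintang ovary, these 3 and PLCB2, and 1 was lower, JAK2. Over all genes tested 3.2% were higher and 6.7% lower in this way. The kinase JAK2 stood at 4.39, 5.05 and 5.25 FPKM in the Jintang ovaries and at 7.27, 7.29 and 6.18 FPKM in the Tibetan ovaries. Several genes of the list are also leukocyte genes. RGS16, a brake on G-protein signals, reached 113 FPKM in Jintang 1, and elsewhere it ranged over 2.51 to 14.2 FPKM.

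Among chemokine-like genes that the symbol rule leaves out, 8 were tested and 0 passed. The log2 fold change was above 0 in 7 of the 8 (median 0.26), beside 41% of all genes tested. Of the 8, 6 were highest in Jintang 1, beside 12.6% of all genes tested. CMKLR1, the receptor of chemerin, stood at 15.8, 7.98 and 4.35 FPKM in Jintang 1, 2 and 3 and at 1.09, 3.47 and 1.68 FPKM in Tibetan 1, 2 and 3 (log2 fold change 1.67, limma unadjusted p = 0.0081, adjusted p = 0.743). CCRL2, which presents chemerin, stood at 4.09, 3.47 and 2.53 FPKM in the Jintang ovaries and at 0.59, 1.71 and 0.74 FPKM in the Tibetan ovaries. Neither overlapped between the breeds, with Jintang higher, an order that 3.2% of all genes tested had. RARRES2, the gene of chemerin itself, was more abundant in every ovary than any of the chemokine genes taken here. It stood at 1808, 373 and 1460 FPKM in the Jintang ovaries and at 1066, 797 and 1056 FPKM in the Tibetan ovaries, with overlap.

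For the sign counts that follow, 41% of all genes tested had a log2 fold change above 0 (median -0.10). Of the inflammatory inducers of chemokines 16 of 20 were tested, 0 passed and 7 had a log2 fold change above 0 (median -0.05). IL1B stood at 4.67, 1.88 and 1.58 FPKM in Jintang 1, 2 and 3 and at 0.11, 0.66 and 0.95 FPKM in Tibetan 1, 2 and 3, and TNF reached at most 1.24 FPKM. In that list 3 of the 16 tested genes were higher in every Jintang ovary (IL1B, IL1R1 and TLR2) and 2 were lower (NFKB2 and MYD88). Over all genes tested 3.2% were higher and 6.7% lower in this way. The NF-kB subunit NFKB2 stood at 33.3, 27.6 and 31.6 FPKM in the Jintang ovaries and at 46.3, 34.1 and 42.5 FPKM in the Tibetan ovaries. The adaptor MYD88 stood at 21.4, 18.5 and 17.1 FPKM in the Jintang ovaries and at 25.0, 23.0 and 24.7 FPKM in the Tibetan ovaries. Of the interferon-gamma axis 7 genes were tested and 3 lay above 0 (median -0.01). Adhesion genes had 10 of 14 above 0 (median 0.28), and 8 of the 14 were lowest in Tibetan 1, beside 20.8% of all genes tested. Genes that trim or hold chemokines in the matrix had 11 of 15 above 0 (median 0.28), among them MMP9, at 20.7, 6.97 and 18.0 FPKM in the Jintang ovaries and 3.19, 4.90 and 0.45 FPKM in the Tibetan ovaries. Regulators of CXCL12 and CXCR4 under low oxygen had 6 of 8 above 0 (median 0.16). No gene of these lists passed the limma test.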

How the data were processed

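Per the labels' protocols, ovary RNA was isolated in TRIzol and an NEBNext kit was used to build the 6 libraries. The authors deposited FPKM values per gene and goat; a table of the whole series repeats the same 6 columns and was not used. TopHat2 2.0.10, Bowtie2 2.1.0 and RSEM 1.2.0 are named in the submitters' processing notes, without roles. No source used here names the build, annotation or strand, and without read counts neither coordinates nor counting intervals appear. Symbols came from a RefSeq table of assembly ARS1.2, in which 16459 of 17504 GeneIDs matched. CCL17 and CCL25 match the rule in that table and were not analysed here. Chemokines annotated without a numbered symbol were not assessed. Ranks, shares and sums of ligands and receptors therefore hold for the genes taken and not for every goat chemokine. The values of 1 receptor, which the counts and sums include, are not reported here.

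The test was limma 3.58.1 (R 4.3.3; lmFit and eBayes, trend on, 2-sided), applied without rescaling to log2(FPKM + 1) of the 13067 genes that reached 1 FPKM in 3 or more libraries, with breed as the only term and Benjamini-Hochberg adjustment at 0.05. Each library is 1 goat, so p-values measure the spread between animals. The procedure was tested on simulated data. The members and the 14 marker and 7 pathway lists were chosen with earlier results of these data known. Values per ovary are given for 17 members chosen by a rule. The rule was a mean of at least 5 FPKM, an unadjusted p under 0.05, or breeds that do not overlap. Such a member without overlap had to reach 1 FPKM in some library. Values are also given for partners of these and for some genes of the lists. The list genes shown are not always those with the smallest p. Other genes named were chosen after their values were seen. The alternatives changed the pseudocount (0.1, 0.01), dropped the filter or raised it to 5 FPKM, scaled libraries by median ratios or to 1 common sum, turned the trend off, added the replicate number as a block, or left out each library. Python 3.11.15, pandas 2.3.3, numpy 2.4.6 and matplotlib 3.10.9 were used.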

Additional observations from a re-analysis of the deposited data

How the results depend on the processing

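No chemokine gene passed under any of the 14 alternatives. Without Jintang 3, 13 genes passed over the whole table, against 0 with all libraries and under every other alternative, so leaving out a library gave 0 to 13. The number of chemokine genes with an unadjusted p under 0.05, 2 with all libraries, was 7 of 40 with no filter (17.5%, beside 5.73% of all genes), 1 of 12 with the filter of 5 FPKM (8.33%, beside 5.72%), 1 of 19 with the replicate number as a block (5.26%, beside 4.45%) and 1 to 4 with a library left out. The number whose breeds did not overlap, 2 with all libraries, was 5 with no filter (12.5%, beside 9.28%), 1 with the filter of 5 FPKM (8.33%, beside 9.32%) and 2 to 6 with a library left out (10.5% to 31.6%, beside 14.1% to 33.6%). The count with an unadjusted p under 0.05 was 3 of 19 (15.8%) with either other pseudocount or with the trend off. The shares of all genes were 6.18% (pseudocount 0.1), 6.05% (0.01) and 6.16% (trend off), and CCL27 was the gene added. For the 2 filter settings the number of genes tested changes the count by construction. For the other settings the cause was not tested.

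Of 194 recomputed log2 fold changes of 14 genes 183 kept their sign. The other 11 changed sign when a library was left out: the values ran from -0.14 to 0.44 for ACKR3, from -1.69 to 0.18 for CCL26, from -0.40 to 0.71 for CCL5, from -0.48 to 0.13 for CX3CL1, from -0.17 to 1.02 for CXCL10, from -0.51 to 0.23 for CXCL12 and from -0.67 to 0.13 for CXCL9. Median-ratio scaling moved the median of all genes from -0.10 to 0.02, and the split of unadjusted p under 0.05 from 368 higher and 438 lower to 456 higher and 308 lower. The replicate numbers do not pair the goats: deviations of same-numbered goats from their breed means correlated at -0.02, -0.21 and -0.47. Below about 1 FPKM the pseudocount compresses differences, and the absolute depth is unknown.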

Other observations

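The cell type lists not described above gave no gene past the threshold either. The log2 fold change was above 0 in 8 of 8 tested luteal markers (median 1.97), in 11 of 12 genes of fibroblasts and stroma (median 1.02), in 10 of 12 markers of blood vessel endothelium (median 0.50) and in 6 of 6 dendritic cell markers other than CCR7 and XCR1 (median 0.48). It was above 0 in 16 of 16 macrophage markers (median 1.28) and in 9 of 14 lymphocyte markers (median 0.22). It was above 0 in 5 of 10 granulosa markers (median 0.10), 2 of 6 theca markers (median -0.28), 2 of 8 genes of smooth muscle and pericytes (median -0.51), 1 of 5 markers of the surface epithelium (median -0.66) and 1 of 3 markers of neutrophils and eosinophils (median -0.19). Over all genes tested it was above 0 in 41% (median -0.10). Single ovaries weighed on these counts. Of the 8 luteal markers 5 were highest in Jintang 2 and 2 in Jintang 1, and 7 were lowest in Tibetan 1. The luteal markers summed to 6455, 20144 and 535 FPKM in Jintang 1, 2 and 3. In Tibetan 1, 2 and 3 they summed to 377, 591 and 2738 FPKM, so the breeds overlapped. Of the 12 genes of fibroblasts and stroma 7 were highest in Jintang 1 and 8 lowest in Tibetan 3. Of the mast cell list KIT alone was tested, at 31.1, 28.3 and 10.4 FPKM in Jintang 1, 2 and 3 and at 3.06, 6.77 and 5.23 FPKM in Tibetan 1, 2 and 3, and the mast cell protease CPA3 stayed at or below 1.30 FPKM. The 3 matched erythrocyte genes summed to between 0.13 and 0.72 FPKM, and the globin genes of that list were not analysed here.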
